A study of Mus musculus with 4 samples.

Results

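Glycolysis was followed through 10 of the 17252 genes counted in these splenocytes: Slc2a1, Hk2, Gpi1, Aldoa, Tpi1, Gapdh, Pgk1, Pgam1, Eno1 and Ldha. They were chosen by name, as the glucose transporter and the enzymes that lead from glucose to lactate. All 10 were found in the table. Their unique molecular identifiers (UMIs, 1 for each captured mRNA molecule) were summed over the 1770 of 3198 barcodes with 300 to 3000 detected genes.

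The samples were spleens of BALB/c mice injected with BCL1, a murine B lymphoma that grows in the spleen, at 10000 cells per mouse, and were taken on day 13. Single cells were profiled by Drop-seq, which captures the 3' end of mRNA on barcoded beads in droplets. There were 4 libraries, with 1 for each treatment: Combination (anti-CD20 and anti-CD27 together), Anti-CD27, Anti-CD20 and Isotype control. Anti-CD20 (18B12) binds B cells and the lymphoma, and anti-CD27 (AT124-1) is an agonist of the costimulatory receptor CD27 on T and NK cells. By the labels, anti-CD27 was given from day 5 to day 8 and anti-CD20 once before, on day 4, while the study's single-cell methods give earlier days. Mice in the study were female and age-matched, all mice here carried the lymphoma, and the number of mice behind each library is not given in the sources used here. The columns with the prefix PBS were taken as the Isotype control because the other 3 prefixes name the other treatments, which is an inference from the labels.

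The 4 libraries kept 340 to 501 cells each, with median depths of 1031 to 1395.5 UMIs per cell. The Isotype control was the shallowest, with 440710 UMIs against 908930 to 939565 in the other libraries. No barcode was shared between libraries (0). Cells were clustered without the genes reported here and named from marker lists, which left 243 cells unnamed. These numbered 106 in Combination, 77 in Anti-CD27, 42 in Anti-CD20 and 18 in the Isotype control. CD3 genes were detected in 88.9% of effector CD8 T-like and 84.5% of T-like cells. Rgs13, a germinal center marker, was detected in 58.2% of germinal center B-like cells (median depth 1801 UMIs), against 1.26% of the B-like class (median 1039). The classes were spread unevenly over the libraries. Combination held 3 B-like cells and 0 of the germinal center class, Anti-CD27 held 185 and 2, Anti-CD20 107 and 118, and the Isotype control 181 and 45. Effector CD8 T-like cells numbered 54, 63, 14 and 4 in the same order, and granulocyte-like cells 71, 50, 9 and 8. Lymphoma cells and normal B cells were not separated. With 1 library per treatment no test between treatments was possible, and the intervals below, all at 95%, take UMIs as independent. They cover counting error only and say nothing of variation between cells or mice.

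Glycolysis turns glucose into pyruvate in the cytosol, and lactate dehydrogenase turns pyruvate into lactate so that NAD+ is regained. Lymphocytes at rest use little glucose, whereas activated T cells and germinal center B cells take up more of it and divide. Many of the genes can be induced by hypoxia-inducible factor, which binds ACGTG, and by Myc, whose E-box CACGTG contains that core on both strands.

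Promoter sequences were read from RefSeq start sites on GRCm38.p6 (mm10, the build named by the submitters), as up to 250 bases upstream with bases of annotated exons removed. Ldha, Hk2, Pgk1 and Tpi1 are shown because the results below return to them and because they run from the most matches among the members to none. Capitals mark ACGTG or its reverse complement CACGT, which merge into CACGTG where they overlap. Ldha lies at chr7:46845554-46845803 (+), Hk2 at chr6:82774455-82774704 (-), Pgk1 at chrX:106186850-106187099 (+) and Tpi1 at chr6:124814297-124814408 (-).
Ldha: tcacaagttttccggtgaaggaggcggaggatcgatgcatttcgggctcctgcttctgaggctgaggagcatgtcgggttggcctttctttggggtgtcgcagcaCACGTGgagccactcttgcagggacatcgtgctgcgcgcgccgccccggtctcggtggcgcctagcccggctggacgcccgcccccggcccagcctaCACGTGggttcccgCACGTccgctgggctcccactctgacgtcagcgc
Hk2: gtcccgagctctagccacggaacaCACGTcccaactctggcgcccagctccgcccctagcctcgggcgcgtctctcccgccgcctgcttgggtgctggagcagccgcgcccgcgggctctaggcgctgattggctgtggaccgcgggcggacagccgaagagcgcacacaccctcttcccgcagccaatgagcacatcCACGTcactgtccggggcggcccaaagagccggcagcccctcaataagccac
Pgk1: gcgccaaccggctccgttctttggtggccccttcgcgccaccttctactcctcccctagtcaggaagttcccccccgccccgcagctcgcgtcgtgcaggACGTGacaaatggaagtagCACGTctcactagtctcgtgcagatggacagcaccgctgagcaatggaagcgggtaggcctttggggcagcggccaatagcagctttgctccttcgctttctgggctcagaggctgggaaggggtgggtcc
Tpi1: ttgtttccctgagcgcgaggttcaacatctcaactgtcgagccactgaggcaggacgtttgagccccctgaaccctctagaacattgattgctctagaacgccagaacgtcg
The Ldha window shown held 5 matches counted over both strands, and it was the only member window with CACGTG. A second Ldha window held 0. Hk2 and Pgk1 held 2 matches each, and the 112 bases of Tpi1 held 0. Of the 10 members, 6 had the core in at least 1 window of 250 bases: Aldoa, Hk2, Ldha, Pgam1, Pgk1 and Slc2a1. Counted by window, 7 of 15 member windows held the core and 1 held CACGTG. The 2 Aldoa windows with the core overlap and share the same match, so windows of 1 gene are not independent. The core was found in 16.6% of 32851 such windows of the genome and CACGTG in 6.02%. These counts use all 250 bases, and the only Slc2a1 match lies in exon bases that were removed from the sequences. A match describes letters and not binding.

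The members gave 3920 UMIs, or 1222 counts per 1000000 UMIs (CPM). Ldha gave 1071 UMIs (27.3% of the list), Aldoa 918 (23.4%), Eno1 690 (17.6%), Gpi1 556 (14.2%) and Tpi1 330 (8.42%). These 5 genes therefore carry nearly all that follows. Pgk1 had 168 UMIs, Slc2a1 65, Hk2 59, Pgam1 38 and Gapdh 25. Gapdh, an enzyme made in large amounts in most tissues, had the fewest UMIs of the 10. The last 400 bases of its transcript matched 105 other annotated genes over at least 50 bases at 95% identity or more, 102 of them pseudogenes. Eno1 matched 6 and Gpi1 5 in the same way, and the other 7 members none (0). Levels of these 3 genes are therefore uncertain, and whether reads were lost to the copies was not tested. A 3' UMI is not divided by transcript length, and capture can differ between mRNAs, so shares of the list are shares of captured molecules.

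Across cell classes, with the 4 libraries together, the summed list was at 1853 CPM in effector CD8 T-like cells (interval 1705 to 2011, 135 cells). Granulocyte-like cells came next at 1585 CPM, followed by macrophage/monocyte-like at 1378, NK-like at 1283, T-like at 1273, germinal center B-like at 1113, dendritic-like at 1001 and B-like at 980 CPM. Erythroid-like cells had 252 CPM (169 to 361), and haemoglobin genes were at 394511 CPM there. Classes were defined from the same cells, so their order is a description. Neighbours from macrophage/monocyte-like to T-like cells differed by less than their counting error.

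**Figure D1:**
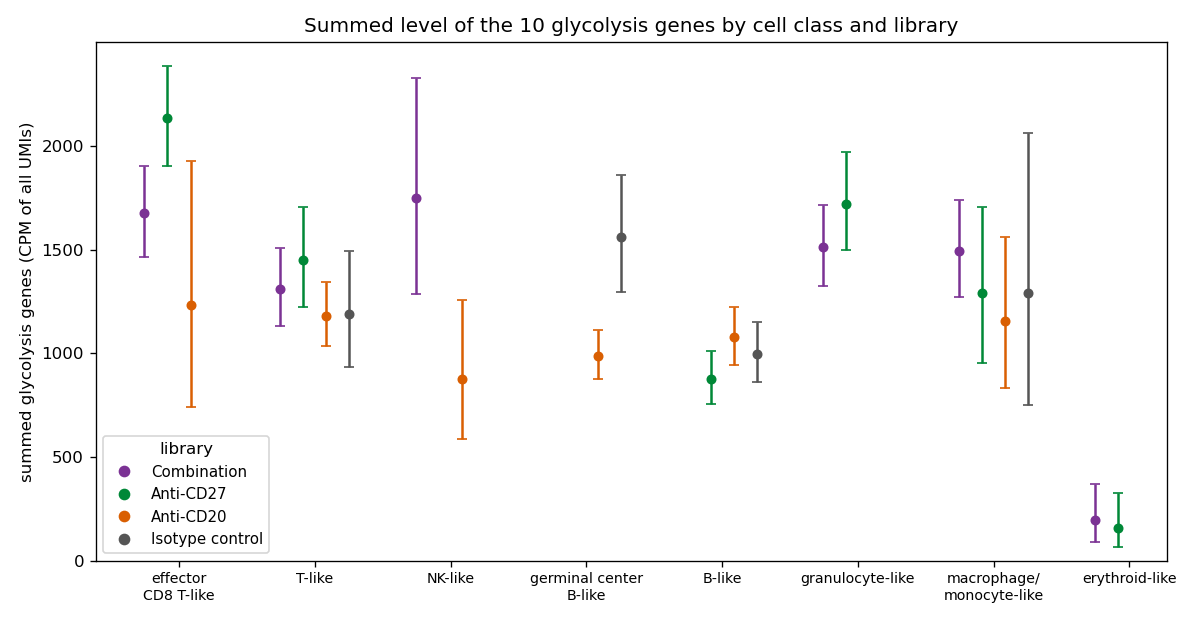
Summed level of the 10 glycolysis genes in CPM (vertical axis) for each cell class (horizontal axis), with 1 point per library that held at least 10 cells of the class. Bars are 95% intervals for counting error. The highest point is the Anti-CD27 library in effector CD8 T-like cells at 2134 CPM, and the lowest points are those of erythroid-like cells.

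Within a class the level also differed between clusters. Among T-like cells, a cluster of 36 cells led by Tnfrsf4, Ctla4, Ikzf2 and Foxp3, genes of regulatory T cells, had 1961 CPM (1595 to 2385), against 1252 CPM in the cluster led by Tcf7 and Cd4 and 1054 CPM in the cluster led by Cd8b1. Aldoa and Ldha, at 36 UMIs each, made up most of it, and the libraries with at least 10 such cells had 1780 CPM in Combination, 2242 in Anti-CD27 and 1981 in Anti-CD20. Single cells weighed heavily in these values, since 1 cell held 13 of 30 UMIs in Combination, 1 held 21 of 45 in Anti-CD27 and 1 held 13 of 22 in Anti-CD20. Granulocyte-like cells led by Camp and Ngp, granule genes of immature neutrophils, had 1845 CPM, against 969 CPM in those led by Retnlg and Cxcr2. Their median depths were 3077 and 956 UMIs per cell. CD3 genes were detected in 40.7% and 15.2% of their cells, and the part of RNA from other cells in these values was not tested. Macrophage/monocyte-like cells led by F13a1 and Ccr2, genes of monocytes, had 1623 CPM, against 906 CPM in those led by C1q genes.

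Slc2a1 encodes GLUT1, the main glucose carrier of activated lymphocytes. It had 18 UMIs in Combination, 25 in Anti-CD27, 13 in Anti-CD20 and 9 in the Isotype control, or 19.6, 27.5, 13.8 and 20.4 CPM. Its UMIs were scattered over the classes, with 12 in B-like, 10 in T-like and 8 in effector CD8 T-like cells. At this depth no difference was detectable between libraries.

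Hk2 encodes the inducible hexokinase that traps glucose by phosphorylation. It had 27 UMIs in Combination, 19 in Anti-CD27, 10 in Anti-CD20 and 3 in the Isotype control. Of its 59 UMIs, 14 were from granulocyte-like cells (45.9 CPM), 14 from macrophage/monocyte-like cells (70.9 CPM) and 15 from an unnamed cluster led by Cxcl9, Aif1 and Ms4a6d (79.8 CPM). B-like cells had 4. In the 425 T-like cells it had 0 UMIs, where a floor of 3 counts would be 5.97 CPM. It was also at 0 in the NK-like, erythroid-like and effector CD8 T-like classes, with floors of 45.3, 26.0 and 9.70 CPM. The NK-like floor was close to the 45.9 CPM of granulocyte-like cells, so that 0 does not show a lower level. Over all cells Hk2 was higher in Combination than in Anti-CD20, at 29.4 against 10.6 CPM, a log2 ratio of 1.47 (0.38 to 2.68). In macrophage/monocyte-like cells alone it had 7 UMIs (63.7 CPM) in Combination and 4 UMIs (110 CPM) in Anti-CD20. The all-cell ratio thus moved together with the larger number of myeloid cells in Combination, whose part in it was not tested.

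Gpi1 encodes glucose-6-phosphate isomerase. It was at 177 CPM in Combination, 200 in Anti-CD27, 160 in Anti-CD20 and 141 in the Isotype control. It was highest in granulocyte-like cells, at 335 CPM, and lay between 145 and 191 CPM in every other class but the erythroid-like one (34.7 CPM). Anti-CD27 exceeded the Isotype control with a log2 ratio of 0.51 (0.09 to 0.95) over all cells. In T-like cells it had 22 UMIs in Anti-CD27 and 5 in the Isotype control.

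Aldoa encodes aldolase A, which splits the phosphorylated sugar into triose phosphates. Its all-cell level was 299, 304, 252 and 297 CPM in Combination, Anti-CD27, Anti-CD20 and the Isotype control. Among the larger classes it ranged from 235 CPM in germinal center B-like (188 to 291) to 390 CPM in granulocyte-like cells (323 to 467).

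Tpi1 encodes triosephosphate isomerase, which interconverts the 2 triose phosphates made by aldolase. Over all cells it was at 105 CPM in Combination, 122 in Anti-CD27, 80.9 in Anti-CD20 and 107 in the Isotype control. Among the 5 most abundant members its class pattern departed most from that of the list: 162 CPM in effector CD8 T-like cells against 37.8 in T-like cells, and 156 CPM in germinal center B-like cells against 68.0 in B-like cells. Over 22 sums of 1 class in 1 library, Pearson's r between a gene and the other members was 0.25 for Tpi1, against 0.90 for Aldoa, 0.90 for Eno1, 0.78 for Ldha and 0.72 for Gpi1. The members with few UMIs were also low, at 0.15 for Slc2a1, 0.18 for Hk2, 0.26 for Pgam1, 0.34 for Gapdh and 0.48 for Pgk1. These sums share libraries and depth, and r is given as a description. They include the erythroid-like cells of Combination and Anti-CD27, where the list was lowest, at 196 and 160 CPM. How far these low sums set each r was not tested.

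Pgk1 and Pgam1 encode phosphoglycerate kinase, which makes the first ATP, and phosphoglycerate mutase. Pgk1 had 39, 57, 39 and 33 UMIs in Combination, Anti-CD27, Anti-CD20 and the Isotype control, or 42.5, 62.7, 41.5 and 74.9 CPM. Pgam1 had 17, 7, 11 and 3 UMIs, 9 of them in effector CD8 T-like cells. Gapdh, which oxidises glyceraldehyde phosphate, had 7, 7, 5 and 6 UMIs. Neither Pgam1 nor Gapdh reached 30 UMIs in any pair of libraries, so they enter no ratio.

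Eno1 encodes enolase 1, which makes phosphoenolpyruvate. It was at 209 CPM in Combination, 242 in Anti-CD27, 178 in Anti-CD20 and 252 in the Isotype control. Granulocyte-like cells had 315 CPM, effector CD8 T-like cells 294 CPM and B-like cells 193 CPM.

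Ldha encodes the lactate dehydrogenase subunit of lactate-producing cells. It was the member with the clearest split between libraries: 380 CPM in Combination and 396 in Anti-CD27, against 265 in Anti-CD20 and 256 in the Isotype control. Over all cells, both libraries that received anti-CD27 lay above both that did not. Within classes the order differed: T-like cells had 519, 380, 427 and 193 CPM in Combination, Anti-CD27, Anti-CD20 and the Isotype control. B-like cells had 167 CPM in Anti-CD27 and 185 in the Isotype control. Effector CD8 T-like and unnamed cells gave 122 and 116 of the 360 UMIs in Anti-CD27, and 2 and 15 of the 113 in the Isotype control. Their part in the split was not tested. By class Ldha was at 686 CPM in effector CD8 T-like cells, 416 in T-like, 293 in germinal center B-like and 187 in B-like cells.

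**Figure D2:**
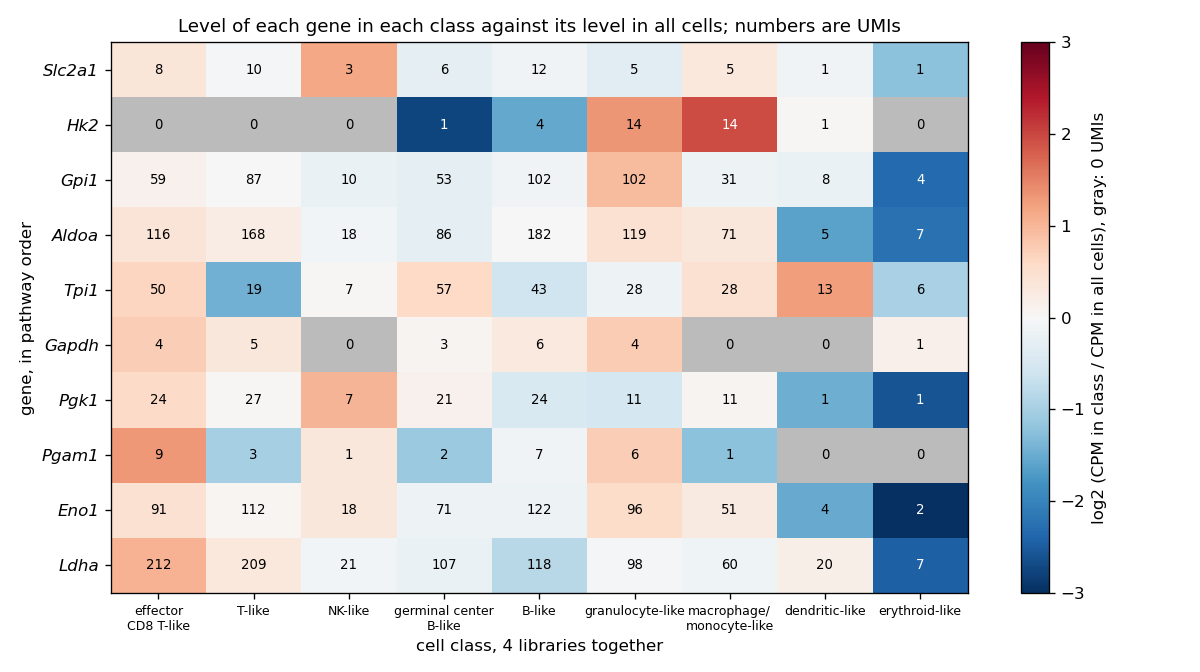
Level of each member (rows, in pathway order) in each cell class (columns) over the 4 libraries, as the log2 ratio to its level in all cells. The number in a field is the UMIs behind it, and gray fields had 0 UMIs. Hk2 is gray in the T and NK classes and above its mean in the myeloid classes, while Tpi1 is low in T-like and above its mean in effector CD8 T-like and germinal center B-like cells.

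The first question was whether adding anti-CD27 to anti-CD20 went with a different level of the list. The summed list was at 1287 CPM in Combination (1215 to 1363) and 1019 CPM in Anti-CD20 (955 to 1085), a log2 ratio of 0.34 (0.21 to 0.46). Ldha contributed most, at a log2 ratio of 0.52 (0.28 to 0.76), and the intervals of Aldoa, Eno1, Tpi1, Gpi1, Pgk1 and Slc2a1 all held 0. Of the 8 members with at least 30 UMIs in the pair, 1 (Hk2) was higher by at least 1.5-fold and 0 were lower, where 17.1% of all genes were higher and 19.9% were lower by that much. The members' median log2 ratio was 0.31, beside -0.08 over all genes.

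Other genes of the pathway were further apart. Of 51 listed, 46 were in the table and 32 had enough UMIs. Of these 32, 13 were higher and 1 was lower by at least 1.5-fold, with a median of 0.46. All 4 transport genes were among the 13. They include Slc16a1 and Slc16a3, which carry lactate out of the cell, at 58 and 29 UMIs in Combination against 14 and 6 in Anti-CD20. Hk3, a hexokinase of myeloid cells, had 85 UMIs in Combination and 8 in Anti-CD20 (log2 ratio 3.44, 2.40 to 4.70). Pkm, the pyruvate kinase gene, had 394 and 224 UMIs (0.85, 0.61 to 1.09). In the pentose phosphate branch, which shares its first sugar phosphate with glycolysis, G6pdx, Pgd, Tkt and Taldo1 had log2 ratios of 2.02, 1.52, 1.01 and 0.91. Ddit4, a stress-induced inhibitor of mTORC1, was lower in Combination, at 24 against 51 UMIs (-1.05, -1.82 to -0.33). These are all-cell values, and within classes the interval of several held 0. In macrophage/monocyte-like cells Tkt was at 237 CPM in Combination and 413 CPM in Anti-CD20 (-0.80, -1.77 to 0.22) and Taldo1 at 919 and 991 CPM (-0.11, -0.67 to 0.48). In T-like cells Pkm was at 276 CPM in both (0.00, -0.62 to 0.62) and Ddit4 at 121 and 130 CPM (-0.10, -1.06 to 0.83).

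Within classes the difference in the list was smaller or uncertain. In T-like cells it was at 1308 CPM in Combination and 1182 in Anti-CD20 (log2 ratio 0.15, -0.14 to 0.43), and in macrophage/monocyte-like cells at 1493 and 1156 CPM (0.37, -0.13 to 0.89). Effector CD8 T-like cells gave 1674 and 1234 CPM (0.44, -0.24 to 1.20), with 19 UMIs behind the Anti-CD20 value. NK-like cells were the exception, at 1749 CPM in Combination and 875 CPM in Anti-CD20 (log2 ratio 1.0, 0.30 to 1.72), but this rested on 47 and 29 UMIs, and 1 of the 12 Combination cells held 17 of the 47. B cells could not be compared, since Combination held only 3. The all-cell difference thus went with a change in which cells were present, and its part was not tested.

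The second question was what anti-CD27 alone went with. The list was at 1391 CPM in Anti-CD27 (1315 to 1469) and 1175 CPM in the Isotype control (1076 to 1281), a log2 ratio of 0.24 (0.09 to 0.39). Ldha had 360 UMIs in Anti-CD27 and 113 in the Isotype control (0.63, 0.32 to 0.95), whereas Aldoa (0.03) and Eno1 (-0.06) were level. Of 7 members measured, 1 (Ldha) was higher and 0 lower by at least 1.5-fold, beside 14.3% higher and 19.1% lower among all genes. The members' median was 0.20 and that of all genes was -0.11. Of 28 other pathway genes measured, 7 were higher and 0 lower, among them Hk3 (46 against 4 UMIs), Pkm (350 against 88 UMIs, log2 ratio 0.95) and Adpgk, an ADP-dependent glucokinase (1.47).

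In T-like cells Ldha was at 380 CPM in Anti-CD27 and 193 CPM in the Isotype control (0.98, 0.01 to 2.05), on 38 and 12 UMIs. Anti-CD20 stood above the same 12 Isotype control UMIs as well, at 427 CPM on 82 UMIs (1.15, 0.26 to 2.16). The summed list in T-like cells gave 0.28 (-0.13 to 0.71), in B-like cells -0.19 (-0.49 to 0.11) and in macrophage/monocyte-like cells 0.00. The proliferation list was higher in Anti-CD27 in T-like cells, at 2809 against 1656 CPM, and its part in the Ldha value was not tested.

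For anti-CD20 alone the list was at 1019 CPM in Anti-CD20 and 1175 CPM in the Isotype control (-0.21, -0.36 to -0.05). Pgk1 (-0.85, -1.56 to -0.14) and Eno1 (-0.50, -0.86 to -0.14) were lower, and Ldha was level over all cells (0.05, -0.28 to 0.38), though not in T-like cells (1.15, as given for that class). Of 6 members measured, 0 were higher and 1 (Pgk1) was lower by at least 1.5-fold, beside 10.1% and 12.9% of all genes, with medians of -0.32 for the members and -0.06 for all genes. Within classes the interval excluded 0 in germinal center B-like cells, where the list was at 989 CPM in Anti-CD20 and 1560 CPM in the Isotype control (-0.66, -0.97 to -0.34), and held 0 in B-like (0.11), T-like (-0.01) and macrophage/monocyte-like cells (-0.16). In the germinal center B-like class Ldha was at 253 and 444 CPM (-0.81, -1.41 to -0.19), Eno1 at 165 and 292 CPM, and Aldoa at 207 and 342 CPM. Whether the classes differed from each other in this ratio was not tested. Other RNA differed between these libraries too: mitochondrial genes were at 59953 CPM in Anti-CD20 and 38143 CPM in the Isotype control, and haemoglobin genes at 18744 and 11811 CPM. Erythroid markers were at 4333 against 2587 CPM in germinal center B-like cells and at 9244 against 3280 CPM in B-like cells. With totals that leave out haemoglobin, mitochondrial and immunoglobulin genes, the list ratio was -0.15 over all cells and -0.62 in the germinal center B-like class.

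Combination and Anti-CD27 differed little over all cells, at 1287 and 1391 CPM (-0.11, -0.23 to 0.00), and no member's interval excluded 0. Of 8 members measured, 0 were past 1.5-fold in either direction, beside 11.1% higher and 11.2% lower among all genes. The members' median was -0.20 and that of all genes -0.00. In effector CD8 T-like cells the list was lower in Combination, at 1674 CPM against 2134 CPM in Anti-CD27 (-0.35, -0.60 to -0.10), as was Ldha, at 597 against 829 CPM (-0.47, -0.90 to -0.06). The proliferation list ran the other way there, at 11152 against 9459 CPM. Ldha also ran the other way in macrophage/monocyte-like cells, at 382 CPM in Combination and 105 CPM in Anti-CD27 (1.86, 0.40 to 3.80), on 42 and 4 UMIs.

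**Figure D3:**
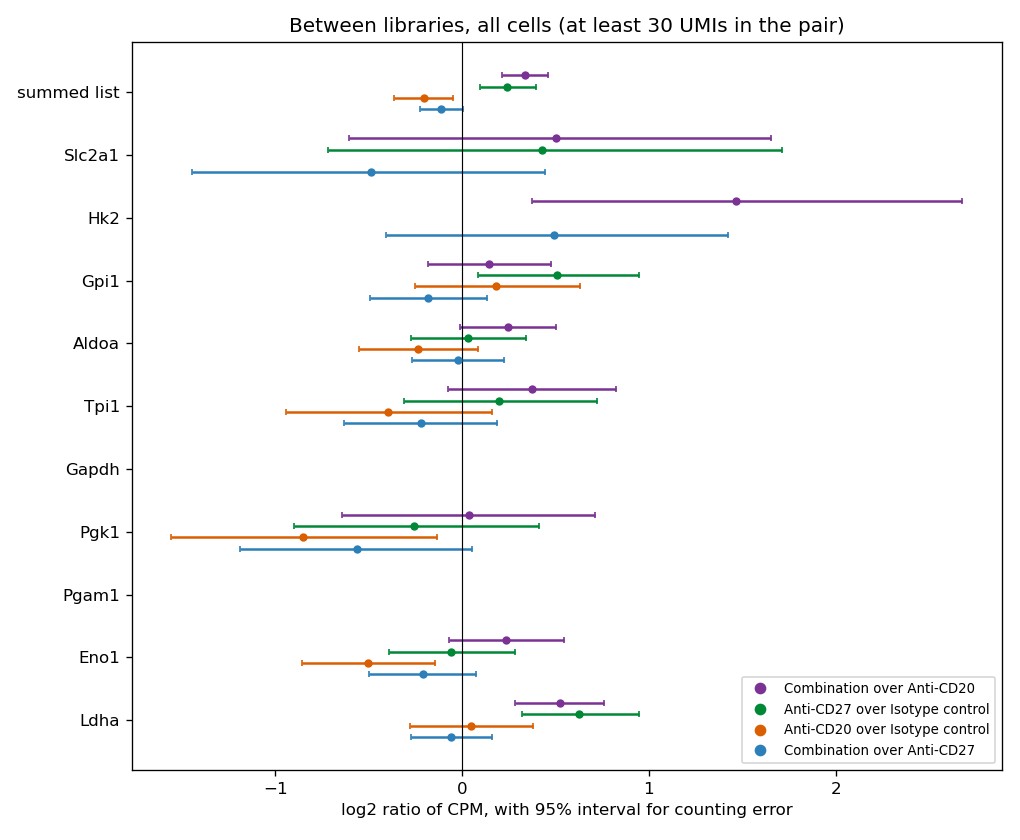
Log2 ratio of CPM between libraries over all cells (horizontal axis) for the summed list and each member, with 95% intervals for counting error, 1 colour per pair of libraries. Pairs with fewer than 30 UMIs are not drawn, which leaves the Gapdh and Pgam1 lines empty. Ldha lies right of 0 in both pairs that add anti-CD27, at 0.52 and 0.63, and near 0 in the other pairs.

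Effector CD8 T-like cells were compared with T-like cells inside each library, so that treatment and library were held fixed. The list was at 1674 CPM in effector CD8 T-like cells and 1308 CPM in T-like cells of Combination (0.36, 0.07 to 0.64), at 2134 and 1449 CPM in Anti-CD27 (0.56, 0.27 to 0.85), and at 1234 and 1182 CPM in Anti-CD20 (0.06, -0.70 to 0.74), where the effector class held 14 cells. The Isotype control had only 4 effector cells. Ldha carried the Anti-CD27 value, at 829 against 380 CPM (1.13, 0.59 to 1.69), while in Combination it was at 597 and 519 CPM (0.20, -0.27 to 0.67).

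Tpi1 was the member with the largest ratio in both libraries that hold many effector cells. In Combination it had 20 UMIs in effector CD8 T-like and 7 in T-like cells, 146 against 47.2 CPM (1.62, 0.33 to 3.11). In Anti-CD27 it had 28 and 2 UMIs, a larger ratio still (3.25, 1.26 to 6.37). Anti-CD20 gave 1 and 7 UMIs, too few to read. The Combination value rests on too few UMIs for Tpi1 to enter the counts that follow, which need 30. Of 4 members measured with at least 30 UMIs in Combination, 0 were past 1.5-fold, beside 25.4% of genes higher and 20.8% lower. In Anti-CD27, 2 of 5 (Ldha and Tpi1) were higher and 0 lower, beside 27% higher and 17.9% lower. In Anti-CD20, 0 of 4 were past it, beside 20.2% higher and 31.2% lower. Members' medians were 0.27, 0.27 and 0.01, and those of all genes 0.11, 0.12 and -0.16.

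**Figure D4:**
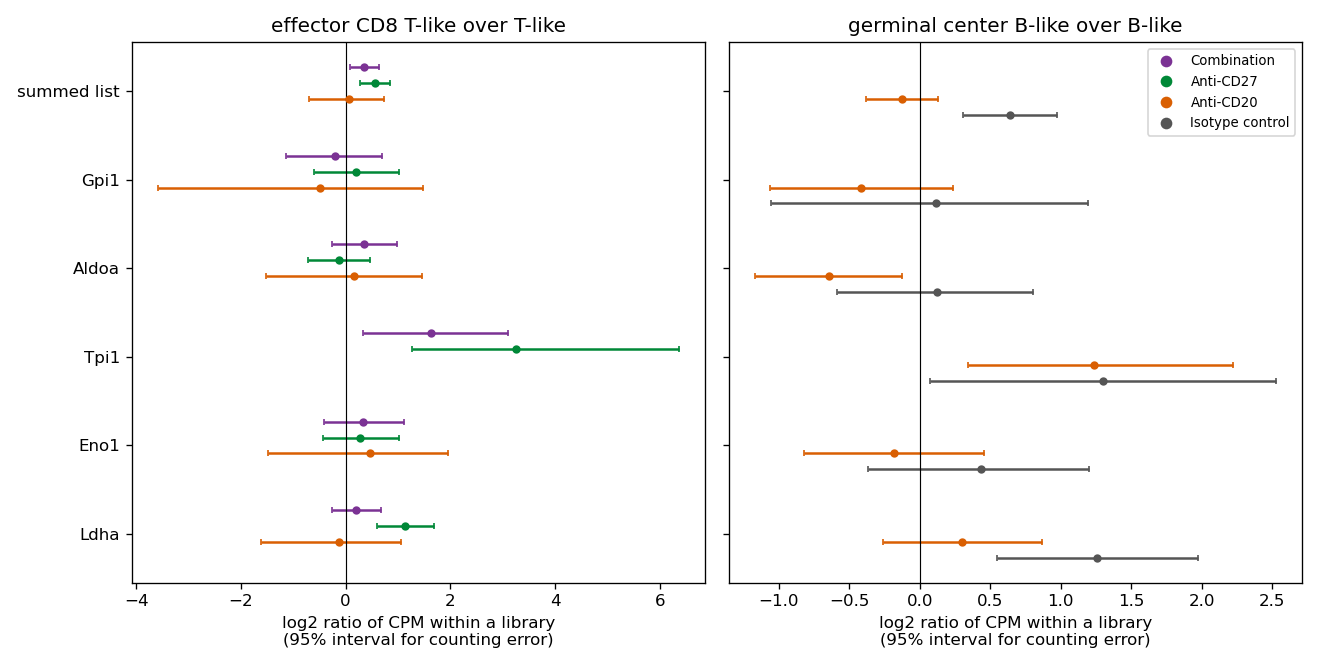
Log2 ratio of CPM within a library (horizontal axis) of effector CD8 T-like over T-like cells (left) and germinal center B-like over B-like cells (right), for the summed list and the 5 most abundant members, with 95% intervals for counting error. Values with fewer than 20 UMIs over the 2 classes are not drawn. Tpi1 lies right of 0 in every library drawn in both panels.

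The effector class also held more RNA of dividing cells. The proliferation list was at 11152 CPM in effector CD8 T-like against 2502 CPM in T-like cells of Combination, at 9459 against 2809 CPM in Anti-CD27 and at 3052 against 1593 CPM in Anti-CD20. A UMI of at least 1 of 7 cell division genes (Mki67, Top2a, Birc5, Cdk1, Ccna2, Ccnb1 and Ccnb2) was found in 39 of 54 effector CD8 T-like and 24 of 125 T-like cells in Combination, and in 37 of 63 and 16 of 83 in Anti-CD27. These counts depend on depth and only define the subsets that follow. Effector cells with such a UMI had the list at 1758 CPM in Combination and 2330 CPM in Anti-CD27, and those without it at 994 and 1293 CPM. T-like cells with such a UMI had 1547, 2130 and 1521 CPM in Combination, Anti-CD27 and Anti-CD20, and those without it 1229, 1072 and 1128 CPM. Cells with such a UMI were deeper, with medians of 2906 against 582 UMIs among effector cells of Combination, and a deeper cell is more likely to show one. The small subsets ran the other way: 3 effector cells of Anti-CD20 with such a UMI had 605 CPM against 1406 CPM in those without, and 5 T-like cells of the Isotype control had 682 against 1243 CPM.

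Effector cells with a division gene UMI held all 20 Tpi1 UMIs in Combination and 25 of 28 in Anti-CD27. They also held most UMIs of all genes, 122288 of 137372 in Combination and 119323 of 147164 in Anti-CD27. Effector cells without a division gene UMI held 0 and 3 Tpi1 UMIs. In Combination their floor of 199 CPM was above the 164 CPM of the cells with one, so that 0 shows no difference. Whether Tpi1 differed between these subsets was not tested. Without any cell that had such a UMI, the list ratio in Combination was -0.31, the reverse of the ratio over all cells. That value rests on 15 UMIs in 15 effector cells, at 994 CPM (557 to 1640) against 1229 CPM in T-like cells. The direction was kept in Anti-CD27, at 1293 against 1072 CPM (0.27), and in Anti-CD20, at 1406 against 1128 CPM (0.32). This alternative was chosen after seeing the data. Division and the effector state cannot be told apart in these cells.

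**Figure D5:**
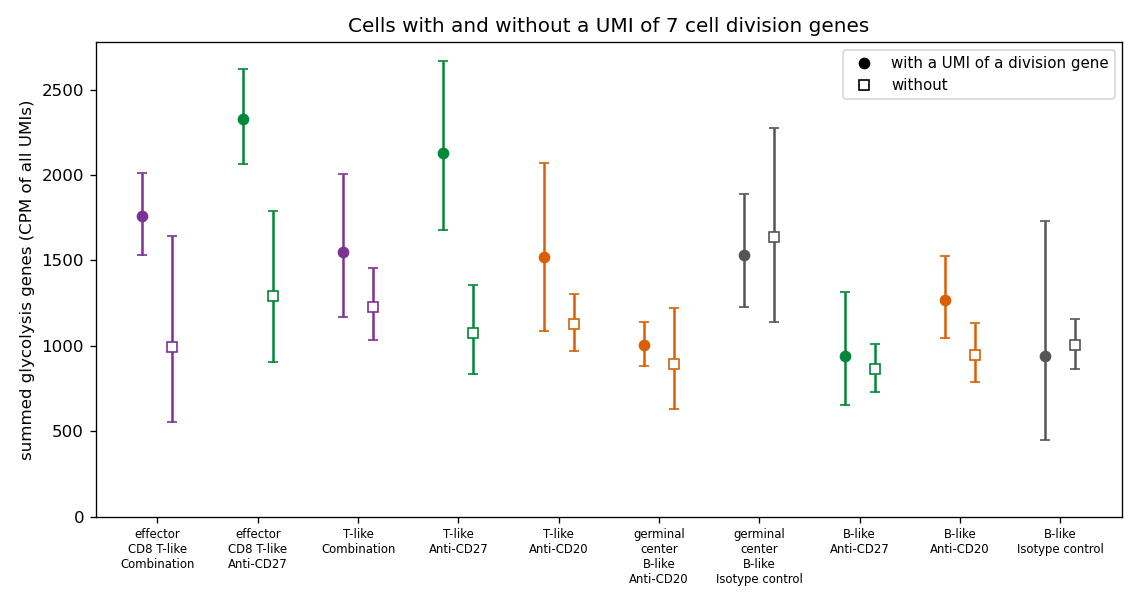
Summed level of the 10 genes in CPM (vertical axis) in cells with (filled) and without (open) a UMI of 7 cell division genes, by class and library (horizontal axis), with 95% intervals for counting error. A library is drawn for a class only where both subsets held at least 10 cells, which leaves out effector cells of Anti-CD20 and T-like cells of the Isotype control. In effector CD8 T-like and T-like cells the filled point lies above the open one in each library drawn, while in the Isotype control it lies below in germinal center B-like cells, at 1531 against 1636 CPM, and in B-like cells.

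To test the difference between T cell states, cells of the T clusters were gated by genes other than the members. These clusters again pooled Cd4-led and Cd8-led cells. Effector cells had at least 2 of 12 cytotoxic and chemokine genes such as Gzmb, Prf1 and Ccl5, and resting cells had none of these and at least 1 of 8 genes such as Ccr7 and Tcf7. UMIs were summed by gate and library and compared by edgeR's quasi-likelihood test with library as a term, with Combination (63 effector and 62 resting cells), Anti-CD27 (68 and 43) and Anti-CD20 (33 and 93). The 3 libraries differ in treatment, so the spread between them includes treatment, and the test has 3 pairs of sums. On simulated data for this contrast, 17 of 92 genes with a true log2 change of 1 were called. Changes of that size would mostly be missed.

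None of the 4 members that passed the filter on low counts was called at an adjusted p of 0.05 in either direction, where 4.14% of 1859 genes were called higher and 3.71% lower. At an unadjusted p under 0.05 the count was also 0, and DESeq2 also called 0 members, with 10 genes called in all. Ldha was at 585, 825 and 527 CPM in effector cells of Combination, Anti-CD27 and Anti-CD20, against 561, 254 and 458 CPM in resting cells, a log2 fold change of 0.51 ± 0.30 (SE, edgeR adjusted p = 0.331). All 3 libraries had it higher in effector cells, but only Anti-CD27 by much. Without Anti-CD27 its fold change was 0.08 (edgeR adjusted p = 0.971), and without Combination it was 0.85 (edgeR adjusted p = 0.473). Aldoa was at 370, 459 and 275 CPM in effector cells against 216, 331 and 320 CPM in resting cells (0.33 ± 0.32, edgeR adjusted p = 0.594). Eno1 and Gpi1 gave 0.25 ± 0.36 and 0.27 ± 0.38 (edgeR adjusted p = 0.733 for both). The median of the 4 was 0.30, beside 0.03 over all genes tested.

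Tpi1 did not pass that filter. In effector cells it was at 135, 167 and 45.8 CPM in Combination, Anti-CD27 and Anti-CD20, against 28.8, 25.4 and 36.6 CPM in resting cells, on 20, 27 and 2 UMIs against 2, 1 and 4. With genes of at least 30 UMIs tested instead, a filter chosen after seeing the data, its log2 fold change was 1.67 ± 0.64 (unadjusted p = 0.0184, edgeR adjusted p = 0.182), with 1.83% of 3669 genes called higher and 1.39% lower. Without the Anti-CD20 library it was tested and called, at 2.31 ± 0.76 (edgeR adjusted p = 0.0342), and 414 genes were called in all.

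In the fit with the low-count filter, where 4.14% of 1859 genes were called higher and 3.71% lower, 8 other pathway genes were tested, with 0 called higher and 1 lower. The one called was Ddit4 (-1.97 ± 0.56, edgeR adjusted p = 0.0253). Mif, a cytokine gene induced in hypoxia, gave 0.95 ± 0.33 (edgeR adjusted p = 0.0698) and Pkm 0.71 ± 0.31 (edgeR adjusted p = 0.162). Of 7 proliferation genes tested, 4 were called higher.

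Germinal center B-like cells were compared with B-like cells in the 2 libraries that hold both. The list was at 989 CPM in germinal center B-like and 1078 CPM in B-like cells of Anti-CD20 (-0.12, -0.38 to 0.13), and at 1560 and 999 CPM in the Isotype control (0.64, 0.31 to 0.98). B-like cells were thus close between the libraries, and the germinal center B-like cells were apart. The proliferation list was higher in germinal center B-like cells in both, by log2 ratios of 3.09 and 3.39.

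Tpi1 was higher in germinal center B-like cells in both libraries, with 43 against 14 UMIs in Anti-CD20 (1.24, 0.34 to 2.22) and 13 against 13 UMIs, from a smaller sum, in the Isotype control (1.30, 0.07 to 2.53). Without cells that had a division gene UMI, an alternative chosen after seeing the data, the Isotype control ratio reversed to -0.60, at 46.7 against 70.8 CPM with 1 UMI left in the germinal center B-like class, and that of Anti-CD20 was 0.87. Ldha was at 253 and 206 CPM in Anti-CD20 (0.30, -0.26 to 0.87) and at 444 and 185 CPM in the Isotype control (1.26, 0.55 to 1.97). Aldoa was lower in germinal center B-like cells of Anti-CD20, at 207 against 324 CPM (-0.65, -1.17 to -0.13), and level in the Isotype control (0.12). Of 5 members measured in Anti-CD20, 1 (Tpi1) was higher and 1 (Aldoa) lower by at least 1.5-fold, beside 29.8% and 15.8% of all genes. In the Isotype control, where Tpi1 had fewer than the 30 UMIs needed, 1 of 4 (Ldha) was higher and 0 lower, beside 23.8% and 23.3%. Members' medians were -0.18 and 0.28, and those of all genes 0.18 and 0.08.

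As with T cells, most Tpi1 UMIs came from cells with a division gene UMI, which were 87 of 118 germinal center B-like cells in Anti-CD20 and 24 of 45 in the Isotype control. These cells held 40 of 43 Tpi1 UMIs in Anti-CD20 and 12 of 13 in the Isotype control. They also held most UMIs of all genes, 242350 of 285012 and 57461 of 78854. In Anti-CD20 the Tpi1 level was 165 CPM in those cells and 70.3 CPM in the others, where it rested on 3 UMIs, at the floor. Whether it differed between these subsets was not tested. Ldha values ran the other way, at 235 against 352 CPM in Anti-CD20, on 57 and 15 UMIs. In the Isotype control they were 383 against 608 CPM, on 22 and 13 UMIs. No interval was computed for these pairs, so a difference beyond counting error is not shown.

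The gated test gave no call here either, on 2 pairs of sums. On simulated data for this contrast, 5 of 103 genes with a true log2 change of 1 were called, so changes of that size would mostly be missed. Germinal center cells had at least 2 of 11 genes such as Rgs13 and Bcl6, and B cells none of these and at least 1 of 6 genes such as Fcer2a and Cr2, with 102 and 70 cells in Anti-CD20 and 38 and 131 in the Isotype control. Of 5 members tested, 0 were called, where 10.7% of 3038 genes were higher and 11.2% lower, and 1 had an unadjusted p under 0.05. DESeq2 called 184 genes and 0 members. The exception was Tpi1, at 152 and 174 CPM in germinal center cells of Anti-CD20 and the Isotype control against 81.7 and 58.5 CPM in B cells, a log2 fold change of 1.01 ± 0.48 (edgeR unadjusted p = 0.0413 and adjusted p = 0.134). Ldha was at 253 and 443 CPM against 193 and 183 CPM (0.63 ± 0.32, edgeR adjusted p = 0.168). Aldoa (-0.24), Eno1 (-0.03) and Gpi1 (-0.26) had edgeR adjusted p of 0.626, 0.974 and 0.714. The median of the 5 was -0.03, beside 0.02 over all genes.

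Of 11 other pathway genes tested between these gates, 2 were called higher and 0 lower. They were Pdha1, a subunit of pyruvate dehydrogenase, at 1.61 ± 0.58 (edgeR adjusted p = 0.0407), and Taldo1, transaldolase, at 0.98 ± 0.31 (edgeR adjusted p = 0.0203). With genes of at least 30 UMIs tested instead, 1 of 14 other pathway genes was called higher and 0 of 3 genes of pyruvate entry, the group of Pdha1, whose call was thus lost. All 23 proliferation genes tested were called higher, with a median of 3.10. The B and T cell sums also held UMIs of markers of the other lineage. T cell markers were at 186 and 50.7 CPM in germinal center B-like cells of Anti-CD20 and the Isotype control against 343 and 263 CPM in the B-like class, and B cell markers were at 7.28, 177 and 64.9 CPM in effector CD8 T-like cells of Combination, Anti-CD27 and Anti-CD20 against 13.5, 170 and 276 CPM in T-like cells. Their part in the values was not tested.

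Over the same 22 sums, the gene whose level was most like the summed list was Pkm (Pearson's r 0.96 among 3098 genes with at least 200 UMIs), the pyruvate kinase gene that stands between Eno1 and Ldha in the pathway. It was followed by Tmsb4x (0.94), Coro1a (0.93), Actb (0.93) and Tpm3-rs7 (0.92), genes of the actin cytoskeleton. The proliferation list had an r of -0.34 with the summed list over these sums. Among them are the erythroid-like sums of Combination and Anti-CD27, with the lowest list levels and the proliferation list at 17671 and 16612 CPM. Their part in these values of r was not tested.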

How the data were processed

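Splenocytes of 4 mouse groups were measured by Drop-seq, 1 library each. The authors deposited 1 table of raw UMI counts per gene and barcode, whole numbers up to 2416, neither filtered nor scaled. The submitters' processing notes name bcl2fastq, STAR 2.5.0a and mm10. Barcodes were assigned to libraries by their column prefix, and no column was left without a sample.

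Barcodes with 300 to 3000 genes were kept, as in the study. The 2000 most variable genes without the reported lists, 30 components, 15 neighbours and Leiden clustering at resolution 1.0 (scanpy 1.11.5, leidenalg 0.10.2) gave 19 clusters. A cluster took the class with the most markers among its top 30 genes, at least 3. It also needed at least 2 among its top 10, or for T-like CD3 genes in at least 70% of cells. NK-like needed CD3 genes in under 30% of cells, and effector CD8 T-like needed Cd8a or Cd8b1 in at least 20%. A T cluster past that 20% became effector CD8 T-like if its top 10 held more effector than T markers. This naming rule was set after the clusters were seen. Scrublet, through scanpy, marked 16 cells (0.904%), which were kept. UMIs were summed over cells, and CPM are per 1000000 of all UMIs summed. Ratios have exact conditional intervals and need at least 10 cells of a class on both sides. Counts past 1.5-fold use genes with at least 30 UMIs over the pair, and ratios given for fewer UMIs stand beside them. Gate sums were tested with edgeR 4.0.16 (R 4.3.3, TMM, filterByExpr, quasi-likelihood, Benjamini-Hochberg) and DESeq2 1.42.0, after both had been tested on simulated data. All p-values measure the spread between these libraries.

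All 10 members were looked up in every comparison and given where their UMIs allowed, and other genes came from a list of 51 pathway genes and 25 proliferation genes. Members and lists were chosen with earlier results of these data known. Promoters came from RefSeq starts on GRCm38.p6, exons from GENCODE vM21, and copies from blastn 2.17.0+. Alternatives changed the limits on genes, resolution, variable genes, scaling, averaging, doublets, gates, filter, tool and library.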

Additional observations from a re-analysis of the deposited data

Results flagged for a closer look

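Several members moved in opposite directions in different libraries under the same comparison of classes. None of these differences between libraries was tested, and most of the intervals held 0.

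For effector CD8 T-like over T-like cells, the log2 ratio of Ldha was 0.20 in Combination and 1.13 in Anti-CD27, but -0.13 in Anti-CD20, on 6 effector UMIs. Gpi1 gave -0.21 in Combination, 0.19 in Anti-CD27 and -0.49 in Anti-CD20. Aldoa gave 0.36 in Combination, -0.13 in Anti-CD27 and 0.16 in Anti-CD20. Only the Ldha interval in Anti-CD27 excluded 0.

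For germinal center B-like over B-like cells, the summed list gave -0.12 in Anti-CD20 and 0.64 in the Isotype control, with intervals that did not overlap (-0.38 to 0.13 and 0.31 to 0.98). Aldoa gave -0.65 and 0.12, Eno1 -0.18 and 0.43, and Gpi1 -0.42 and 0.12 in the same order.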

How the results depend on the processing

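Of 531 alternative values, 469 stayed within the result's interval or limit, 56 moved out of it and 6 were counted as reversed. Some are counts or shares, which have no direction. A CPM ratio was counted as reversed only where its interval excluded 0, so values among the 469 can differ in sign. In Anti-CD20 the list ratio of germinal center B-like over B-like ran from -0.18 to 0.076. That of effector CD8 T-like over T-like ran from -0.19 to 0.38 there. The list ratio of Combination over Anti-CD20 was 0.46 with no upper limit on genes and 0.18 as a mean over cells of each cell's share, and it lay between 0.18 and 0.46 over 10 alternatives. Effector CD8 T-like over T-like in Combination was 0.69 with no upper limit and -0.31 without cells that had a division gene UMI, and in Anti-CD27 it was 0.91 with marker gates and 0.88 against the Cd8-led T-like cluster. The cause was not tested. The number of members called in the T gate was 0 to 1 over the fits that leave out 1 library, and 1 without Anti-CD20. Single genes reversed as follows: Tpi1 in germinal center B-like over B-like cells of the Isotype control to -0.60 and Aldoa in the T gate to -0.066 without dividing cells, Gpi1 in the T gate to -0.00094 without Anti-CD20 (range -0.00094 to 0.43 over the fits without 1 library), and in the B gate Eno1 to 0.11 with no filter and Ldha to -0.35 with cells thinned to 400 UMIs. The alternatives without dividing cells, with the Cd8-led cluster, with the filter at 30 UMIs and without barcodes 1 base apart were chosen after seeing the data. Genes called in the T gate numbered 146, against 19 without Combination, 49 without Anti-CD27, 414 without Anti-CD20, 234 with at least 3 effector genes, 10 with DESeq2, 7 thinned and 3 without dividing cells, and in the B gate 667, against 184 with DESeq2 and 47 thinned. Most of the moved values are shares of cells with a UMI of a member after thinning. Clustering settings do not enter the ratios over all cells. No paired analysis was possible because each treatment has 1 library, and the gate tests already hold library as a term. Members with under 70 UMIs in all (Slc2a1, Hk2, Pgam1 and Gapdh) are limited by depth.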

Other observations

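Barcodes outside the limits on detected genes entered no comparison. The 51 barcodes over 3000 genes had the list at 1778 CPM in Combination (30 barcodes), 2193 in Anti-CD27 (14), 1509 in Anti-CD20 (5) and 2102 in the Isotype control (2), each above the level of its library's kept cells. Barcodes under 300 genes had 334, 466, 176 and 389 CPM in the same order, with 45.2%, 45.5%, 69.3% and 45.6% of their UMIs from haemoglobin genes.

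After thinning each kept cell to 400 UMIs, the mean number of list UMIs per cell was 0.481 in effector CD8 T-like and 0.451 in T-like cells of Combination, 0.705 and 0.488 in Anti-CD27, and 0.5 and 0.490 in Anti-CD20. It was 0.353 in germinal center B-like and 0.381 in B-like cells of Anti-CD20, and 0.511 and 0.287 in the Isotype control.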
